A study of Mus musculus with 15 samples.

Results

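The genes described here encode collagens, laminins, integrins, fibronectin (Fn1), periostin (Postn) and the enzymes that cross-link or cleave them, measured in hypoxic B16.F10 mouse melanoma cells. They were chosen by symbol: a number following Col (with an a chain), Lama, Lamb, Lamc, Mmp, Timp, Adamts or Loxl, a number or v following Itga or Itgb, and Fn1 and Postn by name. Integrin genes with another letter in that place are outside the set. The count tables list 62 such genes among 13172, and 61 of them stand among the 12721 genes listed for all 5 groups. The 62 are 17 collagen chains, 5 laminin chains, Fn1 and Postn, 16 integrin subunits, 6 Mmp, 11 Adamts, 3 Timp and 2 Loxl genes. One of the 6 Mmp genes is Mmp24os1, named as an opposite-strand RNA of Mmp24 and not a protease. Col23a1 is listed for Hif1a_siRNA_Dox, Dox and Control and was fitted apart from the others. The RefSeq annotation of GRCm38 holds 129 genes that match the symbols, so all counts below concern the 62 listed ones.

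B16.F10 is a transplantable, pigmented melanoma line. All cells were cultured in 1% oxygen, and the study asked how loss of Hif1a changes the response to doxorubicin, an anthracycline that traps topoisomerase II on DNA. Polyadenylated RNA was sequenced in 15 libraries, 3 for each of 5 groups. Hif1a_siRNA_Dox cells were reverse-transfected with lipoplexes of an siRNA against Hif1a at 25 nM and, 24 h later, given 0.25 µM doxorubicin for 24 h. Hif1a_siRNA cells got that siRNA and no drug. Dox cells got the same dose of doxorubicin and no siRNA that the labels name. NC_siRNA cells were transfected with a negative control siRNA at 25 nM, and Control cells were left untreated. No group combines the negative control siRNA with doxorubicin, so Hif1a_siRNA_Dox and Dox cells differ in transfection as well as in the siRNA target. The time from transfection to harvest is not given in the sources used here for the groups without drug. The labels number the libraries as biological replicates without naming separate cultures; the spread behind each p-value is that between these libraries and may be technical.

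The extracellular matrix is a network of fibrillar collagens, basement membrane collagens, laminins and glycoproteins such as fibronectin, stiffened by lysyl oxidases that cross-link collagen. Cells hold on to it through integrins, pairs of an alpha and a beta subunit whose combination sets the ligand. Matrix metalloproteinases (Mmp) and Adamts proteases cut the matrix, Timp proteins inhibit them, and melanoma cells use this machinery to leave the primary tumour.

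Library totals ran from 23825110 to 28734303 counted reads. Hif1a itself averaged 13.1 ± 1.35 CPM (read counts relative to library size) in Hif1a_siRNA_Dox cells and 142 ± 8.91 in Dox cells, and 17.2 ± 1.57 in Hif1a_siRNA cells, against 274 ± 13.5 in NC_siRNA cells and 217 ± 13.2 in Control cells (SD, n = 3 each). CPM here use library sizes adjusted by TMM, edgeR's trimmed mean scaling. All 8 melanocyte markers looked up (Dct, Mc1r, Mitf, Mlana, Pmel, Sox10, Tyr and Tyrp1) were listed, summing to at least 8438 CPM in every library. Of 6 fibroblast markers 3 were listed (Pdgfra, Pdgfrb and Pdpn), summing to at most 46.8 CPM in any library, and of 5 leukocyte markers 1 (Cd68), at most 30.1 CPM. None of the 5 endothelial and 4 epithelial markers stood among the genes listed for all groups. Mitochondrially encoded genes took 3.90 to 5.07% of reads in Hif1a_siRNA_Dox libraries, 1.64 to 2.11% in Hif1a_siRNA, 3.37 to 4.07% in Dox, 1.79 to 2.06% in NC_siRNA and 1.38 to 1.47% in Control. Bulk RNA cannot tell fewer cells of a kind from less RNA per cell.

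The 62 genes together took 0.414 to 0.437% of reads in Hif1a_siRNA_Dox libraries, 0.274 to 0.278% in Hif1a_siRNA, 0.392 to 0.418% in Dox, 0.485 to 0.516% in NC_siRNA and 0.251 to 0.276% in Control. On a scale of CPM per kilobase of exon, which allows genes to be compared with each other, Itgb1, the beta subunit shared by most matrix receptors, was the most abundant integrin gene in each group, at 180.5 in Hif1a_siRNA_Dox, 148 in Hif1a_siRNA, 219 in Dox, 321 in NC_siRNA and 179 in Control. Among the other classes the highest means per kilobase in Dox cells were those of Timp2 (129), Mmp14 (69.6), Lamb2 (54.2), Loxl3 (36.2) and Fn1 (28.8). In Control cells Fn1 had 45.9 and Mmp14 38.8 CPM per kilobase. The first principal component of the 61 genes held 79.7% of their variance and separated the 6 libraries with doxorubicin from the 9 without. A second component with 13.3% placed the Hif1a_siRNA libraries at one end and the NC_siRNA libraries at the other.

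**Figure D1:**
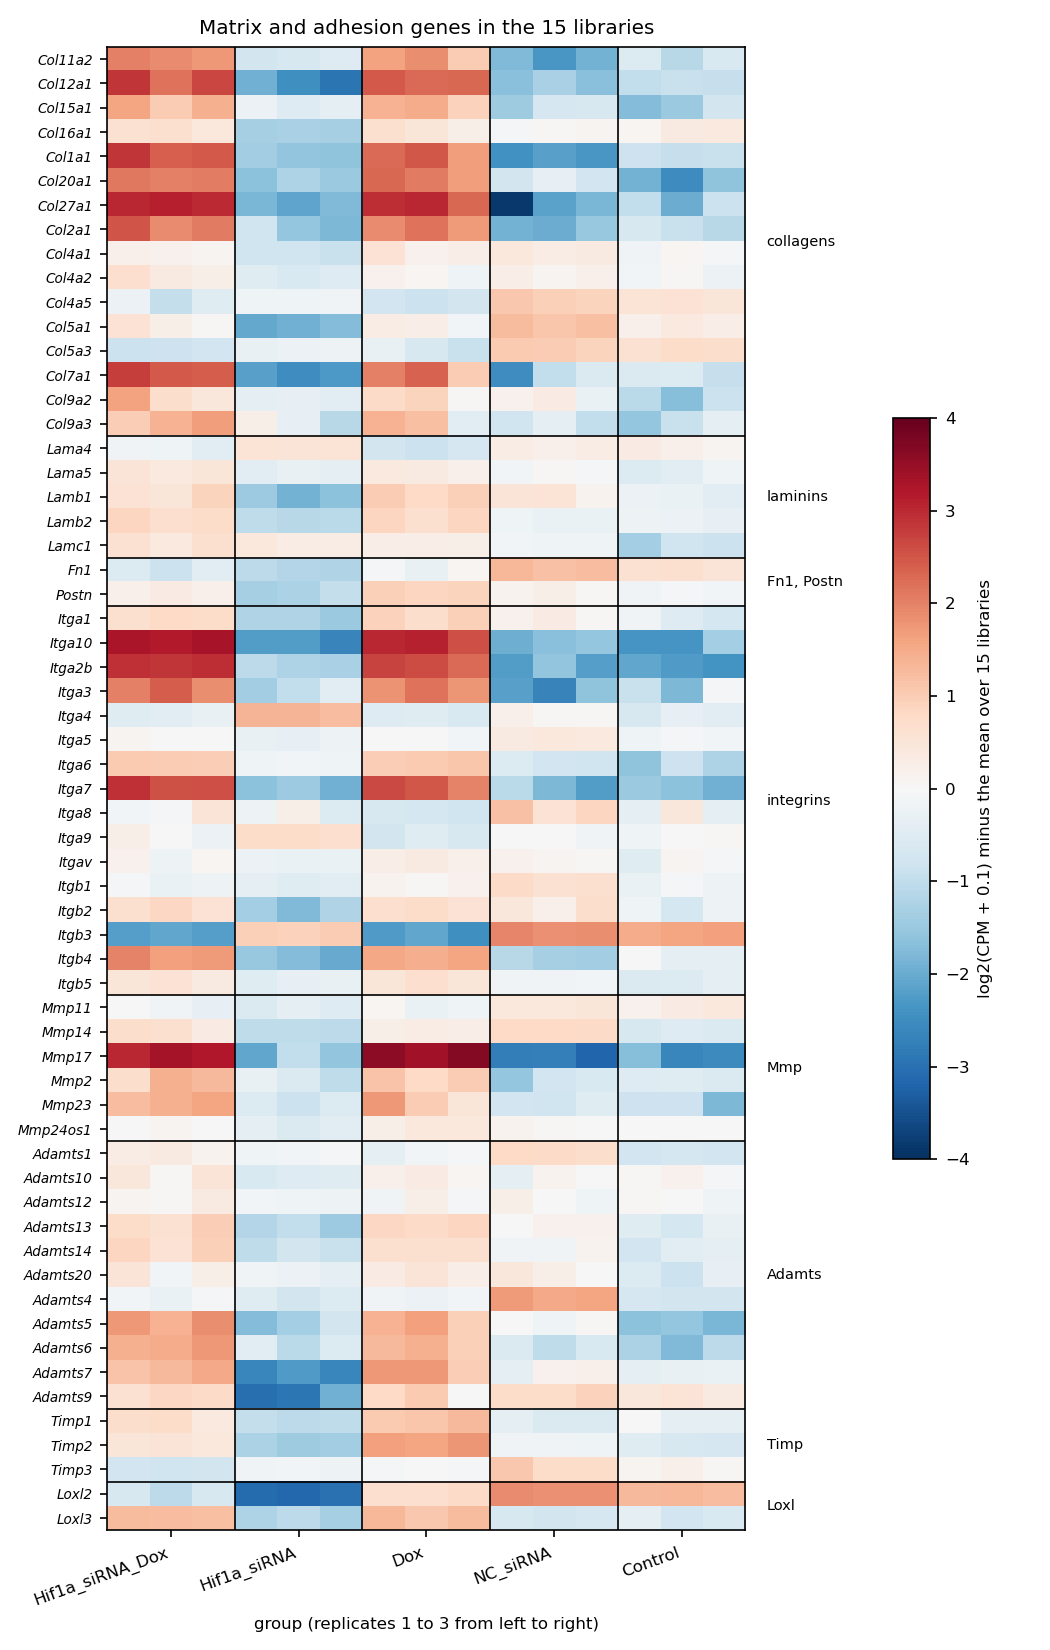
Each row is 1 of the 61 genes listed for all groups and each column 1 of the 15 libraries, with colour giving log2(CPM + 0.1) minus the gene's mean over the libraries. The 6 libraries with doxorubicin share their pattern in most rows, with high Mmp17, Itga10 and Itga2b and low Itgb3, and the 3 Hif1a_siRNA libraries hold the lowest Loxl2, Col5a1 and Adamts7.

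The comparison of Hif1a_siRNA with NC_siRNA asked what loss of Hif1a does to the matrix genes in hypoxia. Most of them were lower: 41 of 61 fell, 10 rose and 10 did not pass at an adjusted p of 0.05 in edgeR. Over all 12721 genes 31.2% fell and 36.4% rose. The median log2 fold change was -0.68 over the 61 genes and 0.06 over all genes, and 22 of the 61 fell at least 2-fold, against 10.3% of all genes. NC_siRNA cells themselves differed from Control cells, with 31 of the 61 genes higher and 8 lower, so some falls are measured against a raised level. Among genes whose higher group mean reached 5 CPM, Loxl2, Col5a1, Adamts7 and Fn1 fell most and Col11a2, Itga4, Itga2b and Itga9 rose most. Below that level Adamts9 fell by 3.63 on the log2 scale, and Mmp17 and Itga3 rose by 1.60 and 1.47. Itga3 averaged 0.748 CPM in Hif1a_siRNA cells, 0.269 in NC_siRNA cells and 0.829 in Control cells, so its rise is measured against a lower level. Itga3 also reached the Hif1a_siRNA list only with that group's own libraries counted. Its rise therefore adds no support to the count of rises.

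Among the matrix ligands, 9 of 16 collagen chains fell and 2 rose. Col5a1, the chain of collagen V that helps to start collagen I fibrils, had 21.0, 23.0 and 26.0 CPM in Hif1a_siRNA libraries, against 212, 189.9 and 201 CPM in NC_siRNA libraries. All 3 knockdown values lay below all 3 others, with a log2 fold change of -3.11 ± 0.13 (SE; edgeR, adjusted p = 5.9e-14), or 8.61-fold lower. The basement membrane chains Col4a1, Col4a2 and Col4a5 fell by smaller amounts (log2 fold changes -1.20, -0.74 and -1.13), as did Col5a3 (-1.23) and Col16a1 (-1.36), a collagen that sits on fibril surfaces. Against this direction, Col11a2, a chain of the cartilage collagen XI, had 6.90, 7.22 and 7.94 CPM in Hif1a_siRNA libraries, against 3.31, 2.20 and 3.01 CPM in NC_siRNA libraries. Its groups did not overlap either, at a log2 fold change of 1.37 ± 0.22 (edgeR, adjusted p = 1.4e-05). Col1a1, the main chain of collagen I, rose at a low level (3.50 ± 0.319 CPM in Hif1a_siRNA cells and 1.99 ± 0.188 in NC_siRNA cells, SD, n = 3 each). Some low collagens lost the call when 1 library was left out (edgeR adjusted p in brackets): Col12a1 without Hif1a_siRNA replicate 3 (up to 0.06), and Col7a1 without Hif1a_siRNA replicate 2 or 3 or NC_siRNA replicate 2 or 3 (up to 0.15).

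Fn1, fibronectin, the ligand of several integrins, had 123, 115 and 112 CPM in Hif1a_siRNA libraries, against 648, 583 and 600.4 CPM in NC_siRNA libraries, 5.21-fold lower (log2 -2.38 ± 0.10; edgeR, adjusted p = 5.7e-15). The 2 groups stood far apart, and untreated Control cells lay between them at 389 ± 15.1 CPM. Postn, a matricellular protein that binds integrins, fell as well (log2 -1.33). The laminin chains split. Lamb1 fell by 2.11 on the log2 scale, Lamb2 by 0.85 and Lama5 by 0.32, whereas Lamc1 and Lama4 rose by 0.49 and 0.28.

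Of the 16 integrin subunits, the receptors of these ligands, 10 fell and 5 rose. Itga4, the alpha subunit of a receptor for fibronectin and VCAM-1, had 87.6, 86.9 and 79.8 CPM in Hif1a_siRNA libraries, against 38.9, 35.1 and 34.7 CPM in NC_siRNA libraries. That put every knockdown library above every control siRNA library, at a log2 fold change of 1.23 ± 0.09 (edgeR, adjusted p = 1.7e-11). Itga9, which forms a receptor for tenascin-C and other ligands, had 48.8, 49.0 and 47.2 CPM after the Hif1a siRNA and 29.1, 28.8 and 26.8 CPM after the control siRNA (log2 0.78 ± 0.10; edgeR, adjusted p = 3.7e-07). Itga2b, the alpha subunit of the platelet fibrinogen receptor, had 6.16, 5.50 and 5.23 CPM in Hif1a_siRNA libraries and 2.66, 4.25 and 2.71 CPM in NC_siRNA libraries, low but not overlapping (log2 0.81 ± 0.16; edgeR, adjusted p = 0.00012). Falling subunits included the most abundant one, Itgb1 (566 ± 19.8 CPM in Hif1a_siRNA cells and 1226 ± 74.0 in NC_siRNA cells), and Itga1, a collagen receptor subunit (log2 -1.50). Control cells averaged 684 CPM of Itgb1. Itga5, the fibronectin receptor subunit, and Itgb3 fell by 0.67 and 0.92 on the log2 scale. Itga3, which rose at under 2 CPM, and Itga10, Itgb4 and Itgb5, which fell, lost the call when 1 library was left out (edgeR adjusted p in brackets): Itga3 without Hif1a_siRNA replicate 3 (up to 0.057), Itga10 without Hif1a_siRNA replicate 3 or NC_siRNA replicate 2 or 3 (up to 0.09), Itgb4 without Hif1a_siRNA replicate 3 or NC_siRNA replicate 1 (up to 0.1), and Itgb5 without Hif1a_siRNA replicate 1 (up to 0.06).

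The cross-linking enzyme Loxl2 changed more than any other of the 61 genes in this comparison. Loxl2, a lysyl oxidase-like enzyme described as a HIF target in other cells, had 4.01, 3.90 and 4.33 CPM in Hif1a_siRNA libraries, against 129.5, 124 and 124 CPM in NC_siRNA libraries. The fall was 30.8-fold (log2 -4.94 ± 0.11; edgeR, adjusted p = 9.8e-21), with all 3 knockdown libraries under 5 CPM. Loxl3, its paralog, fell by 0.51 on the log2 scale. Both genes sit in the cross-linking step, so genes that modify collagen before it were read as well: of 12 listed, 10 fell and 1 rose, with a median of -1.06. Plod2 (-3.80) and Plod1 (-3.76), which hydroxylate collagen lysines, and P4hb (-2.76), a subunit of the prolyl hydroxylase, were the 3 with the smallest adjusted p.

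Among the proteases, 9 of 11 Adamts genes fell and 2 did not pass. Adamts7, which cleaves cartilage oligomeric matrix protein, had 0.777, 0.997 and 0.782 CPM in Hif1a_siRNA libraries, against 3.99, 5.86 and 6.06 CPM in NC_siRNA libraries. The groups were separate, at a log2 fold change of -2.63 ± 0.24 (edgeR, adjusted p = 1.4e-09). Adamts9, which cleaves aggrecan and versican, was 0.344 ± 0.198 CPM in Hif1a_siRNA cells and 4.33 ± 0.370 in NC_siRNA cells (log2 -3.63). It had 7, 8 and 19 reads in Hif1a_siRNA libraries. Adamts9 thus reached 10 reads in 3 libraries for the Hif1a_siRNA list only with Control libraries, where it is high, counted. Its fall therefore adds no support to the counts of falls. Adamts4 and Adamts1, which cut aggrecan and versican, and Mmp14, the membrane-anchored collagenase that activates Mmp2, were lower after the Hif1a siRNA than after the control siRNA (log2 -2.19, -0.88 and -1.80). For all 3 genes the knockdown cells lay nearer to untreated cells than NC_siRNA cells did. Adamts4 averaged 48.1 ± 4.43 CPM in Hif1a_siRNA cells, 219 ± 14.3 in NC_siRNA cells and 44.2 ± 1.11 in Control cells. Adamts1 averaged 106 ± 3.34 CPM in Hif1a_siRNA cells, 196 ± 6.15 in NC_siRNA cells and 68.7 ± 1.39 in Control cells. Mmp14 averaged 119 ± 1.82 CPM in Hif1a_siRNA cells, 414 ± 4.44 in NC_siRNA cells and 162 ± 7.00 in Control cells. Of the 5 Mmp proteases Mmp14 and Mmp11 (log2 -0.93) fell, Mmp2 and Mmp23 did not pass, and Mmp17, a membrane-anchored metalloproteinase, rose at under 2 CPM (log2 1.60). Mmp24os1 fell by 0.54. Calls lost on leaving out 1 library were those of Adamts10 without NC_siRNA replicate 2 (up to 0.07), and Adamts20 without Hif1a_siRNA replicate 2 or 3 or NC_siRNA replicate 1 or 2 (up to 0.14), as edgeR adjusted p. The 10 genes of the whole set that did not pass were Adamts12, Adamts6, Col15a1, Col27a1, Col2a1, Col9a2, Col9a3, Itga7, Mmp2 and Mmp23.

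All 3 Timp inhibitors fell. Timp2 averaged 58.8 ± 3.46 CPM in Hif1a_siRNA cells and 136 ± 0.871 in NC_siRNA cells, Timp3 73.2 ± 2.54 CPM in Hif1a_siRNA cells and 148 ± 22.2 in NC_siRNA cells, and Timp1 2.53 ± 0.102 CPM in Hif1a_siRNA cells and 3.61 ± 0.303 in NC_siRNA cells (SD, n = 3 each). Control cells averaged 100.0 CPM of Timp2, 88.1 of Timp3 and 4.38 of Timp1. The log2 fold changes of Hif1a_siRNA against NC_siRNA were -1.21, -1.01 and -0.51, and Timp1 just missed the threshold without NC_siRNA replicate 1 (edgeR, adjusted p = 0.053). Of 12 other pericellular proteases and inhibitors, 8 fell and 3 rose (median -0.44), among them Bsg, an inducer of Mmp genes (log2 -3.18), and Plat, the tissue plasminogen activator (-3.07). In the matricellular list 6 of 9 fell (median -1.15; Ccn1 -1.97, Sparc -1.15, Thbs3 1.63), and in the basement membrane and proteoglycan list 4 of 9 fell and 4 rose (median 0.15; Dag1 -1.37, Nid1 2.29). Among 20 genes of the integrin adhesion machinery 10 fell and 6 rose (median -0.18), with Cav1 at -3.21. The TGF-beta list, a signal that controls matrix genes, was mixed (5 of 11 fell, 4 rose, median -0.14), and Ltbp1, which tethers latent TGF-beta to the matrix, had the largest fall of the list (log2 -6.82). Ltbp1 averaged only 0.0710 CPM in Hif1a_siRNA cells, against 8.54 in NC_siRNA cells and 6.61 in Control cells. It is listed for Hif1a_siRNA only with Control libraries, where it is high, counted. Its fall therefore adds no support to the falls of that list.

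The promoters were searched for the core of the hypoxia response element, ACGTG or GCGTG on either strand, in RefSeq windows of 250 bases before to 50 after a start site. Of the 62 genes 41 had a window in the table (44 windows in all), and 20 of the 44 windows, 45.5%, held a core, against 62.4% of 12272 windows of tested genes and 43.8% of all 32851. Among members with a window, 16 of 30 that fell after the Hif1a siRNA held a core, as did 3 of 5 that rose and 1 of 5 that did not pass. A match of 5 letters is given as a description only. The 3 windows below are examples picked from members that fell after the siRNA and hold a single core, in capitals. Other members that fell, such as Timp2 and Lamb1, hold a single core too. The 250 bases before the start are printed 5′ to 3′ on the gene's strand (GRCm38). In Col5a1 (plus strand, chr2:27886175-27886424) the core lies on the opposite strand, its first base 216 before the start, in Mmp14 (plus strand, chr14:54431348-54431597) also on the opposite strand, 48 before it, and in Adamts9 (minus strand, chr6:92943535-92943784) on the gene's strand, 44 before it.
Col5a1: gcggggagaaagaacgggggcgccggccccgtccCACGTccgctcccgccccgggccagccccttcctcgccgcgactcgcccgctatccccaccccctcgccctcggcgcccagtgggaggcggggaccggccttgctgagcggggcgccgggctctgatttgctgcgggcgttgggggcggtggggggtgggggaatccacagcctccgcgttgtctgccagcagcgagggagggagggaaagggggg
Mmp14: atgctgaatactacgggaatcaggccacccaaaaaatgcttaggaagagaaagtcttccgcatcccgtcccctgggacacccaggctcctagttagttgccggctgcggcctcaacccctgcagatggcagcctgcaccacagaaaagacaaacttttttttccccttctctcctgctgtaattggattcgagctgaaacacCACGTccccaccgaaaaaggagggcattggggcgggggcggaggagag
Adamts9: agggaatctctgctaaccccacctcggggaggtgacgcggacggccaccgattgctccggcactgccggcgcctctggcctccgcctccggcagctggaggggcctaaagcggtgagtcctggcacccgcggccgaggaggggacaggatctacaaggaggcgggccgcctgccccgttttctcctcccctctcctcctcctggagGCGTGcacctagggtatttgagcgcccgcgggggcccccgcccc

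**Figure D2:**
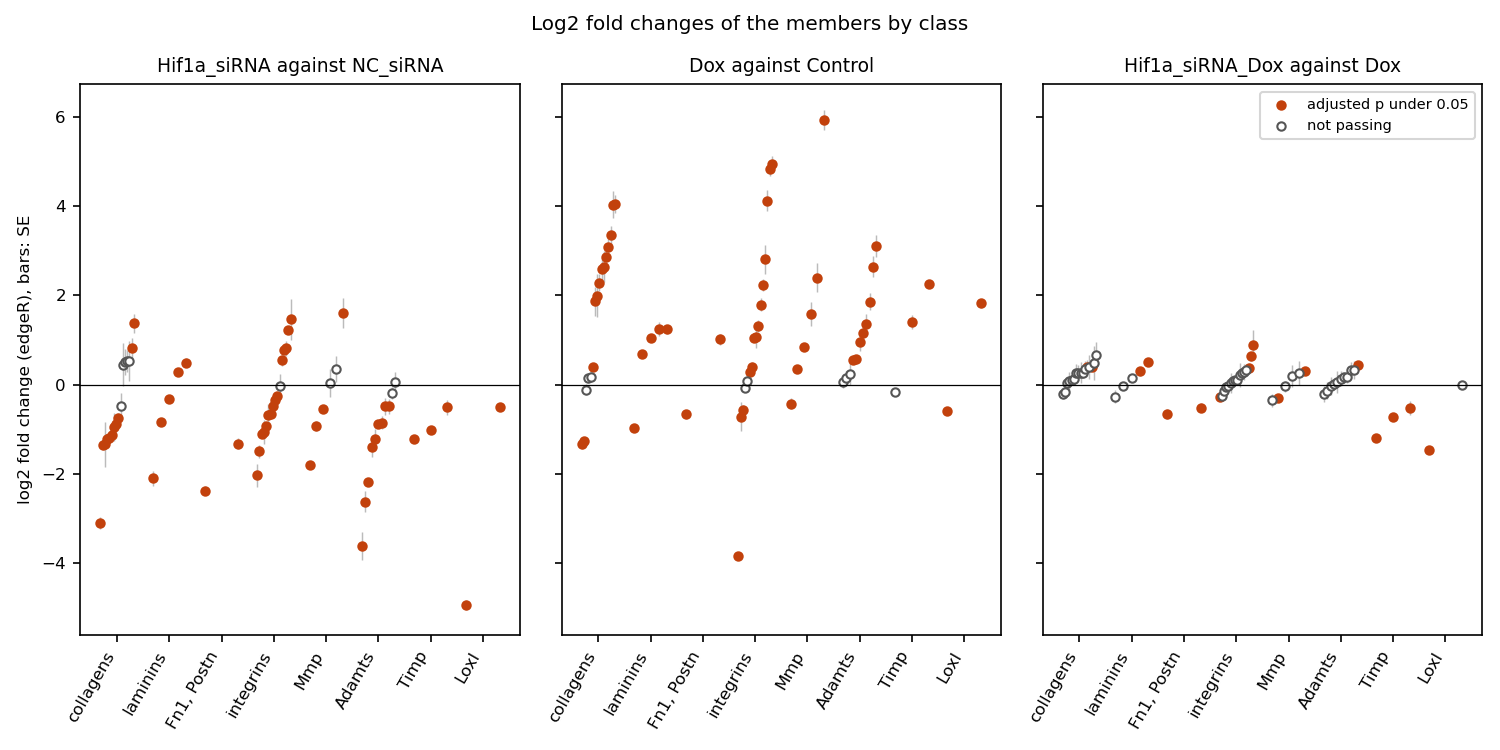
Each point is the edgeR log2 fold change of 1 gene with its SE, ordered by size within its class, for Hif1a_siRNA against NC_siRNA, Dox against Control and Hif1a_siRNA_Dox against Dox. The points of the first panel lie mostly below 0 down to Loxl2 at -4.94, those of the second mostly above 0 up to Mmp17 at 5.95, and those of the third between -1.48 and 0.90.

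Dox was compared with Control to read the drug's effect without an siRNA. Doxorubicin raised most of the set: 43 of 61 genes rose, 9 fell and 9 did not pass, where 43.9% of all genes rose and 39.8% fell. The median log2 fold change was 1.06, against 0.10 over all genes. At least 2-fold rises were called for 34 of the 61, against 26.8% of all genes. Of the 19 members averaging under 10 CPM 16 rose (43.1% of all genes at that level), and of the 42 at 10 CPM or more 27 rose (44.2%). Mmp17, Itga10, Itga2b and Itga7 gained most, and Itgb3 lost most.

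Collagens rose in 11 of 16 cases, 10 of them at least 2-fold, with a median log2 fold change of 2.14. Col1a1 averaged 46.7 ± 12.4 CPM in Dox cells and 5.49 ± 0.156 in Control cells (log2 3.09). The fibril-associated Col20a1 and Col12a1 rose by 4.06 and 3.36 on the log2 scale, Col27a1, a fibrillar collagen of cartilage, by 4.04, and the cartilage chains Col2a1 and Col11a2 by 2.86 and 2.28. Col7a1, which forms the anchoring fibrils of skin, rose by 2.65. Col23a1, a transmembrane collagen listed for Control and the drug groups, rose in a fit of those groups (log2 1.80 ± 0.34; edgeR, adjusted p = 0.00022), with 25 to 38 reads in Dox libraries and 6 to 10 in Control libraries. The basement membrane did not follow as a whole: Col4a1 rose by 0.39, Col4a2 did not pass (0.14), and Col4a5 fell. Col4a1 and Col4a2 start back to back and share 22 exonic bases on opposite strands.

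Col4a5, the chain mutated in X-linked Alport disease in humans, had 29.2, 27.1 and 29.6 CPM in Dox libraries, against 72.1, 74.2 and 69.0 CPM in Control libraries. Col5a3 had 38.8, 30.3 and 25.4 CPM in Dox libraries and 72.5, 78.4 and 78.2 CPM in Control libraries. Neither gene's groups overlapped, with log2 fold changes of -1.33 ± 0.12 and -1.28 ± 0.10 (edgeR, adjusted p = 7.3e-10 and adjusted p = 5.9e-11). In the raised collagens Dox replicate 3 stood low: it was the lowest of the 3 Dox libraries in 9 of 11, with a median ratio of 0.617 to the mean of replicates 1 and 2, against 1.01 over all genes. For example, Col7a1 had 10.4, 13.2 and 5.06 CPM in the Dox libraries and Col27a1 39.4, 41.5 and 24.9 CPM. The 3 listed fibroblast markers also rose with the drug (summed 36.8 to 39.3 CPM in Dox libraries and 24.4 to 25.8 CPM in Control libraries), and of the melanocyte markers 5 rose and 3 fell. The part of these in the collagen values was not tested. Col9a3, Col23a1 and Itga3 had at least 10 reads in fewer than 3 Control libraries. They therefore reached the Dox list only with Dox libraries, where they are high, counted. Their rises with the drug, the tested rise of Col23a1 included, add no support to the counts of rises.

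Among the other ligands, 4 of 5 laminin chains rose, with Lamb2 at 305 ± 25.9 CPM in Dox cells and 148 ± 6.59 in Control cells and Lamc1, the gamma chain of most laminins, at 153 ± 2.75 CPM in Dox cells and 64.6 ± 12.7 in Control cells. Lama4, an alpha chain of vessel-wall laminins, went the other way: it had 26.1, 23.7 and 26.9 CPM in Dox libraries, against 53.8, 49.7 and 46.3 CPM in Control libraries, without overlap (log2 -0.97 ± 0.09; edgeR, adjusted p = 4.6e-10). Postn rose by 1.01 and Fn1 fell by 0.67 on the log2 scale.

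Integrin subunits made up 3 of the 4 largest rises. Itga10, the alpha subunit of a collagen receptor of cartilage cells, had 50.1, 52.7 and 36.7 CPM in Dox libraries, against 1.10, 1.10 and 2.29 CPM in Control libraries. Itga2b had 85.6, 79.9 and 63.2 CPM in Dox libraries, against 3.00, 2.60 and 2.38 CPM in Control libraries. Itga7, a laminin receptor subunit of muscle, had 41.3, 36.7 and 25.9 CPM in Dox libraries, against 2.25, 2.03 and 1.64 CPM in Control libraries. In all 3 genes the lowest Dox library, replicate 3, was still more than 10 times the highest Control library's level. The log2 fold changes were 4.95 ± 0.20 for Itga10, 4.84 ± 0.15 for Itga2b and 4.13 ± 0.24 for Itga7 (edgeR, adjusted p = 2.6e-16, adjusted p = 1.8e-18 and adjusted p = 2.8e-12). Itga10 shares 34.5% of its exonic bases with Gm42957 on the same strand, so its reads may be split with that gene.

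Itgb3, the beta subunit that pairs with Itga2b and Itgav, fell most of the 61 genes. It had 8.54, 9.78 and 7.49 CPM in Dox libraries, against 118, 125 and 129 CPM in Control libraries, 14.4-fold lower (log2 -3.85 ± 0.09; edgeR, adjusted p = 1.1e-20). The pair therefore crossed over on a per-kilobase scale: Itga2b had 22.2 and Itgb3 1.49 CPM per kilobase in Dox cells, against 0.774 for Itga2b and 21.5 for Itgb3 in Control cells. Both genes lie on chromosome 11, at chr11:102453297-102469883 and chr11:104608000-104670476. The laminin receptor subunits Itga6, Itga3 and Itgb4 rose by 2.23, 2.81 and 1.79, Itgb4 being the partner of Itga6 in hemidesmosomes. Without Control replicate 3, which had the highest Itga3 of its group, the Itga3 value was 3.40. Itga5 and Itga4 did not pass (0.08 and -0.07), and Itga9 fell by 0.57. Itga8 fell at about 1 CPM and lost the call without Dox replicate 1, 2 or 3 or Control replicate 2 (edgeR, adjusted p = 0.31 at most) and with upper-quartile factors (edgeR, adjusted p = 0.09).

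The promoter windows of the most raised integrins are shown because both lack the hypoxia core that the windows above contain. Both sets of windows were picked by the motif, so this contrast comes from the choice. Itga10 is on the plus strand (chr3:96645334-96645583) and Itga2b on the minus strand (chr11:102469884-102470133), GRCm38. The AP-1 site TGACTCA, or TGAGTCA on the other strand, was also searched: 1 of 44 member windows held it (2.27%, that of Itga9), against 3.64% of the windows of tested genes. Absence from these windows says only that the letters are not there.
Itga10: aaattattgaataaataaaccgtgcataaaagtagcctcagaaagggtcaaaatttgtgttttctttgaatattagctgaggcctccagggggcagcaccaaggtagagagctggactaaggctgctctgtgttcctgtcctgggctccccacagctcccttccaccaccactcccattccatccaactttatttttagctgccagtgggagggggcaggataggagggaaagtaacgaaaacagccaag
Itga2b: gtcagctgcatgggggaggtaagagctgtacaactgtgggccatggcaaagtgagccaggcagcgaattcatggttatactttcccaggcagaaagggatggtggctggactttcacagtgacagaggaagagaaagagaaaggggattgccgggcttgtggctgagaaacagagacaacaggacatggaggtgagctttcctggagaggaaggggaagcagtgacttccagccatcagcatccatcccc

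**Figure D3:**
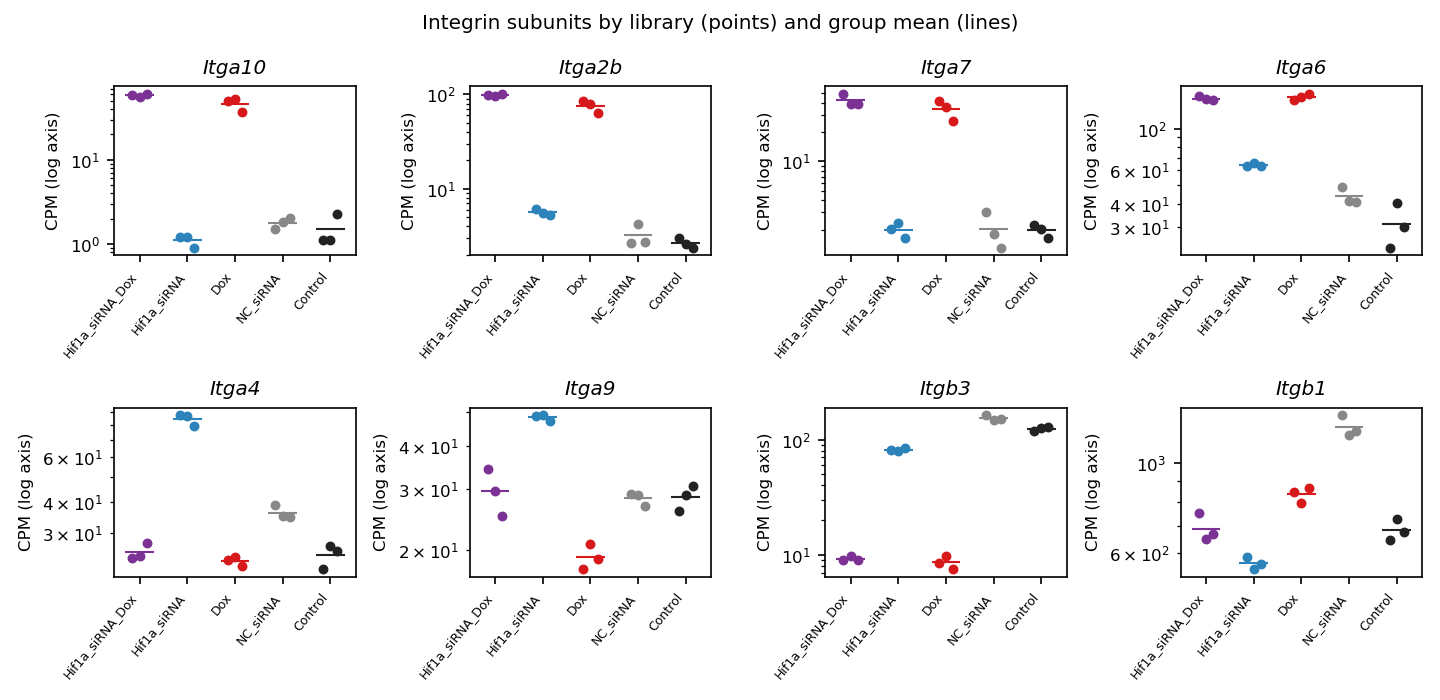
CPM of 8 integrin subunits on log axes, 1 point a library and a line at each group mean, with the groups from Hif1a_siRNA_Dox on the left to Control on the right. Itga10, Itga2b, Itga7 and Itga6 are high in the 6 libraries with doxorubicin, Itgb3 is at 7.49 to 9.78 CPM in those libraries and at least 79.7 CPM in all others, and Itga4 and Itga9 are highest in Hif1a_siRNA.

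Of the 5 Mmp proteases 4 rose with the drug, as did 8 of 11 Adamts genes and the RNA Mmp24os1 (log2 0.35). Mmp17 had 43.1, 36.8 and 45.4 CPM in Dox libraries, against 1.01, 0.485 and 0.519 CPM in Control libraries. The Control libraries held 11 to 23 Mmp17 reads each, and the groups lay far apart (log2 5.95 ± 0.23; edgeR, adjusted p = 6.9e-17). Mmp2, the gelatinase that Mmp14 activates, rose by 1.58, Mmp23 by 2.40 and Mmp14 by 0.85. Mmp11, or stromelysin 3, fell by 0.43. The aggrecanase Adamts5 and the little characterised Adamts6 rose by 3.12 and 2.65, Adamts7 by 1.86, Adamts13, which cleaves von Willebrand factor, by 1.35 and Adamts14, a procollagen peptidase, by 1.16. Adamts20, known for the belted coat pattern of mutant mice, rose by 0.94.

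The inhibitor Timp2 rose to 479 ± 31.4 CPM in Dox cells, against 100.0 ± 8.16 CPM in Control cells (SD, n = 3 each; log2 2.26), the highest level per kilobase of any protease or inhibitor of the set in Dox cells. Timp1 rose by 1.41 and Timp3, the inhibitor that stays bound to matrix, did not pass (-0.17). The 9 genes of the set that did not pass were Adamts10, Adamts12, Adamts9, Col16a1, Col4a2, Col5a1, Itga4, Itga5 and Timp3. The cross-linkers parted: Loxl2 fell to 56.7 ± 2.17 CPM in Dox cells, against 85.5 ± 3.17 CPM in Control cells, and Loxl3 rose to 148 ± 13.5 CPM in Dox cells, against 42.0 ± 5.33 CPM in Control cells. Loxl3 shares 13.1% of its exonic bases with Htra2 on the opposite strand, which stood at 92.2 CPM in Dox cells and 22.3 CPM in Control cells, and the strand setting of the counting is not given in the sources used here.

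Genes around the set moved in both directions. Of 12 genes of collagen modification 6 rose and 6 fell (median 0.62), with Crtap (3.16) and P3h1 (1.73), partners in prolyl 3-hydroxylation, among the rises. Of 9 matricellular genes 7 rose (median 1.17), among them Thbs1 (3.78) and Ccn2 (5.23). Ccn2 averaged 0.452 CPM in Control cells and is listed for Dox only with Dox libraries, where it is high, counted. Its rise therefore adds no support to the count of that list. Basement membrane and proteoglycan genes rose in 5 of 9 cases (median 0.38; Sdc1, a heparan sulfate co-receptor, 3.71). The integrin adhesion list had 11 of 20 higher and 8 lower (median 0.21), with Fermt2, which activates integrins from inside, at -2.75 and Vcl, vinculin, at 1.26. Pericellular proteases and inhibitors rose in 7 of 12 cases (median 0.63). In the TGF-beta list 8 of 11 rose (median 1.28), including the ligand Tgfb2 (3.32) and Smad3 (1.80), while Smad4 fell by 2.37.

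**Figure D4:**
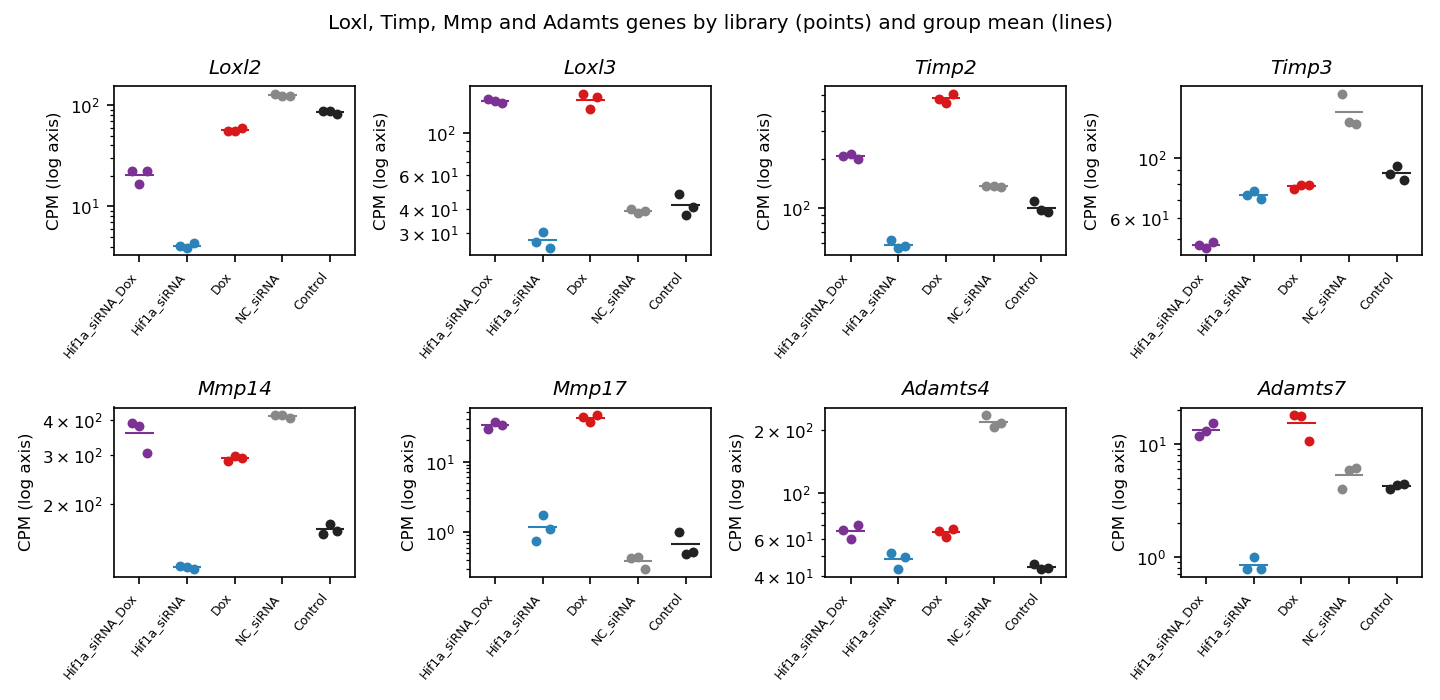
CPM of 2 Loxl, 2 Timp, 2 Mmp and 2 Adamts genes on log axes, 1 point a library and a line at each group mean, with the groups from Hif1a_siRNA_Dox on the left to Control on the right. Loxl2 is lowest in Hif1a_siRNA, at 4.08 CPM on average, Timp2 is highest in Dox, at 479 CPM, and Adamts4 in NC_siRNA, at 219 CPM.

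With doxorubicin present, more of the genes failed the test for the Hif1a siRNA than passed it, as was also the case over all genes. Between Hif1a_siRNA_Dox and Dox, 9 of 61 genes rose, 8 fell and 44 did not pass. Of all 12721 genes 21.5% rose, 20.8% fell and 7348 genes did not pass. The median log2 fold change was 0.11 over the 61 genes and 0.01 over all genes. Loxl2 and Timp2 were the 2 genes of the 61 that fell at least 2-fold, against 2.54% of all genes. All 3 Timp genes, both Fn1 and Postn, and Loxl2 were among the falls, and the rises were small. The number of rises rested on 1 library: without Dox replicate 3 it was 5 in place of 9. With upper-quartile factors 8 rose and 12 fell.

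Loxl2 had 22.2, 16.7 and 22.3 CPM in Hif1a_siRNA_Dox libraries, against 55.4, 55.5 and 59.2 CPM in Dox libraries. The fall of 2.78-fold (log2 -1.48 ± 0.09; edgeR, adjusted p = 2e-11) was again free of overlap, and Loxl3 did not pass (-0.02). Timp2, which besides inhibiting Mmp2 takes part in its activation by Mmp14, had 210.3, 217 and 202 CPM in Hif1a_siRNA_Dox libraries, against 473, 451 and 513 CPM in Dox libraries (log2 -1.19 ± 0.07; edgeR, adjusted p = 6e-12). The matrix-bound Timp3 had 47.5, 46.5 and 48.9 CPM in Hif1a_siRNA_Dox libraries and 76.6, 79.5 and 79.1 CPM in Dox libraries (log2 -0.72 ± 0.09; edgeR, adjusted p = 7.1e-07). For both inhibitors the 3 libraries with siRNA lay within a narrow band below the 3 without it. Postn had 11.7, 12.6 and 11.5 CPM in Hif1a_siRNA_Dox libraries and 19.7, 18.3 and 18.7 CPM in Dox libraries, also separate (log2 -0.66 ± 0.12; edgeR, adjusted p = 0.0001). Timp1 and Fn1 fell by 0.53 and 0.52 on the log2 scale, and Itgb1 by 0.28.

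Among members of at least 5 CPM the rises were led by Itga9, with 34.3, 29.6 and 25.2 CPM in Hif1a_siRNA_Dox libraries, against 17.6, 20.8 and 18.9 CPM in Dox libraries (log2 0.64 ± 0.10; edgeR, adjusted p = 4.4e-05). Lama4 had 38.9, 38.2 and 31.9 CPM in Hif1a_siRNA_Dox libraries, against 26.1, 23.7 and 26.9 CPM in Dox libraries (log2 0.51 ± 0.09; edgeR, adjusted p = 7.6e-05). Both had fallen with the drug alone, and both stood higher when the siRNA was given with it. Adamts1, which cleaves versican, had 142, 148 and 126 CPM in Hif1a_siRNA_Dox libraries and 90.6, 108 and 109 CPM in Dox libraries (log2 0.43 ± 0.08; edgeR, adjusted p = 7.5e-05). Col4a2 had 60.2, 49.1 and 45.0 CPM in Hif1a_siRNA_Dox libraries and 43.0, 40.0 and 33.6 CPM in Dox libraries (log2 0.40 ± 0.11; edgeR, adjusted p = 0.0038). These 4 rises were all under 2-fold. Mmp14 rose by 0.30. Itga8 rose at under 3 CPM (log2 0.90). Calls lost on leaving out 1 library were those of Itga2b without Dox replicate 3 (up to 0.081), Lamc1 without Hif1a_siRNA_Dox replicate 1 or 3 or Dox replicate 3 (up to 0.07), Col1a1 without Hif1a_siRNA_Dox replicate 1 or Dox replicate 1 or 3 (up to 0.24), and Itga8 without Hif1a_siRNA_Dox replicate 3 or Dox replicate 1, 2 or 3 (up to 0.11), as edgeR adjusted p.

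Loxl2, Fn1, Postn and the Timp genes fell after the Hif1a siRNA with and without the drug, while Col5a1, Adamts7, Adamts9, Adamts4 and Lamb1, which fell against NC_siRNA without it, did not pass with it (log2 0.13, -0.21, 0.05, 0.02 and -0.27). Of these, Adamts9 is listed for Hif1a_siRNA only with Control libraries counted. Adamts4 averaged 48.1 CPM in Hif1a_siRNA cells, 219 in NC_siRNA cells and 44.2 in Control cells, so its fall is from a raised level. The siRNA effects have different controls, Dox and NC_siRNA, and the difference between them was not tested. Col23a1 did not pass (log2 0.75; edgeR, adjusted p = 0.096). Around the set, collagen modification genes fell in 7 of 12 cases (median -0.39; Crtap -2.98, Plod1 -1.53, Colgalt1 -1.10) and integrin adhesion genes in 8 of 20 (median -0.19). Counts in the other lists were 3 lower of 9 for basement membrane and proteoglycan (Sdc3 -1.03), 3 higher and 1 lower of 9 for matricellular genes (Ccn2 1.29), 1 higher and 3 lower of 12 for pericellular proteases (Bsg -0.75) and 3 higher of 11 for TGF-beta (Tgfbr2 0.78).

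After the Hif1a siRNA, most of the set was higher with doxorubicin than without it. Between Hif1a_siRNA_Dox and Hif1a_siRNA 53 of 61 genes rose, 7 fell and 1, Itga8, did not pass (log2 0.28), where 42.6% of all genes rose and 41.6% fell. The median log2 fold change was 1.73, against 0.04 over all genes. Col9a3 and Itga3, which had at least 10 reads in fewer than 3 Control libraries, are among the rises. They reached the Hif1a_siRNA_Dox list only with that group's own libraries, where they are high, counted. Their rises therefore add no support to the count of rises. Summed collagens stood at 606 ± 65.6 CPM in Hif1a_siRNA_Dox cells and 212 ± 2.58 in Hif1a_siRNA cells, and summed laminins at 723 ± 41.4 CPM in Hif1a_siRNA_Dox cells and 416 ± 7.69 in Hif1a_siRNA cells (SD, n = 3 each). Summed Mmp genes came to 453 ± 47.4 CPM in Hif1a_siRNA_Dox cells and 159.9 ± 1.91 CPM in Hif1a_siRNA cells. Of the 3 listed fibroblast markers 2 rose here (summed 42.5 to 46.8 CPM in Hif1a_siRNA_Dox libraries and 29.9 to 31.5 CPM in Hif1a_siRNA libraries), and of the melanocyte markers 4 rose and 4 fell. Their part in these values was not tested.

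Itga10 led with 59.0, 55.8 and 60.9 CPM in Hif1a_siRNA_Dox libraries, against 1.21, 1.21 and 0.902 CPM in Hif1a_siRNA libraries (log2 5.72 ± 0.19; edgeR, adjusted p = 2.2e-17). Col12a1, which coats collagen I fibrils, had 22.3, 13.6 and 19.6 CPM in Hif1a_siRNA_Dox libraries, against 0.715, 0.453 and 0.301 CPM in Hif1a_siRNA libraries (log2 5.23 ± 0.24; edgeR, adjusted p = 1.1e-15). Every Col12a1 value lay above 10 CPM in the combination and below 1 CPM after the siRNA alone. Col7a1 had 17.3, 14.0 and 13.8 CPM in Hif1a_siRNA_Dox libraries, against 0.466, 0.363 and 0.421 CPM in Hif1a_siRNA libraries (log2 5.16 ± 0.40; edgeR, adjusted p = 1.1e-09). Col27a1 had 41.7, 44.6 and 40.6 CPM in Hif1a_siRNA_Dox libraries, against 1.34, 1.09 and 1.41 CPM in Hif1a_siRNA libraries (log2 5.04 ± 0.31; edgeR, adjusted p = 4.7e-10). None of the 4 rises had overlapping groups.

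The falls were again led by Itgb3, with 9.04, 9.75 and 8.92 CPM in Hif1a_siRNA_Dox libraries, against 81.1, 79.7 and 84.4 CPM in Hif1a_siRNA libraries (log2 -3.14 ± 0.09; edgeR, adjusted p = 2.4e-19). Itga4 had 24.0, 24.5 and 27.5 CPM in Hif1a_siRNA_Dox libraries, against 87.6, 86.9 and 79.8 CPM in Hif1a_siRNA libraries (log2 -1.74 ± 0.09; edgeR, adjusted p = 1.1e-14). Itga4 averaged 25.3 CPM in the combination, beside 23.4 CPM in Dox cells and 24.6 CPM in Control cells. Lama4 had 38.9, 38.2 and 31.9 CPM in Hif1a_siRNA_Dox libraries, against 63.4, 62.4 and 63.7 CPM in Hif1a_siRNA libraries (log2 -0.80 ± 0.08; edgeR, adjusted p = 7.1e-09). Itga9 had 34.3, 29.6 and 25.2 CPM in Hif1a_siRNA_Dox libraries, against 48.8, 49.0 and 47.2 CPM in Hif1a_siRNA libraries (log2 -0.70 ± 0.10; edgeR, adjusted p = 7.9e-07). In none of the 4 did the groups overlap. All 11 Adamts genes and all 6 Mmp genes, Mmp24os1 included, rose, with Mmp17 at 4.77, Adamts7 at 3.95 and Adamts9 at 3.57 on the log2 scale. Adamts9 had only 7, 8 and 19 reads in Hif1a_siRNA libraries and is listed for that group only with Control libraries counted. Small rises lost the call on leaving out 1 library (edgeR adjusted p in brackets): Adamts12 without Hif1a_siRNA_Dox replicate 3 or Hif1a_siRNA replicate 1, 2 or 3 (up to 0.13), Adamts20 without Hif1a_siRNA_Dox replicate 1 or Hif1a_siRNA replicate 2 or 3 (up to 0.14), Mmp11 without Hif1a_siRNA_Dox replicate 1 or Hif1a_siRNA replicate 1 or 3 (up to 0.11), Itgav without Hif1a_siRNA_Dox replicate 1 or 3 or Hif1a_siRNA replicate 1, 2 or 3 (up to 0.15), and Lamc1 without Hif1a_siRNA_Dox replicate 1 or 3 or Hif1a_siRNA replicate 1, 2 or 3 (up to 0.25).

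Related genes followed in part. Of the collagen modification genes 9 rose and 2 fell of 12 (median 1.31), with P3h1 at 2.74 and Pcolce, which speeds procollagen trimming, at 2.72. Of the pericellular proteases and inhibitors 9 rose and 2 fell of 12 (median 0.90). In the matricellular list 7 rose and 1 fell of 9 (median 2.05), with Thbs1 at 4.43. Ccn2 is listed for Hif1a_siRNA_Dox only with that group's own libraries, where it is high, counted, and adds no support to this count. In the basement membrane and proteoglycan list 5 rose and 4 fell of 9 (median 1.22), with Sdc1 at 2.55. In integrin adhesion 12 rose and 8 fell of 20 (median 0.62), and in TGF-beta 7 rose and 2 fell of 11 (median 1.41). Ltbp1 of the TGF-beta list averaged 0.0710 CPM in Hif1a_siRNA cells and is listed for that group only with Control libraries counted.

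The 2 drug effects, Hif1a_siRNA_Dox against Hif1a_siRNA and Dox against Control, share no library. Of the 61 genes 43 rose and 5 fell in both, 10 were called in 1 of them, and 3 (Fn1, Loxl2 and Mmp11) fell with the drug alone and rose with it after the siRNA. Of all 12721 genes 83.8% were called, in either direction, in Dox against Control and 84.2% in Hif1a_siRNA_Dox against Hif1a_siRNA. Joint calls and the correlation of the 2 effects were not computed over all genes. Agreement between the effects is therefore not read as particular to the set. Across the 61 genes, which are not independent, the 2 sets of log2 fold changes had a Pearson r of 0.847 and a Spearman rho of 0.803, given as a description. The difference of the effects, tested as 1 contrast of the 4 groups, was positive for 27 genes and negative for 8, with 26 not passing, where 26.3% of all genes were positive and 32.3% negative (58.6% together). The median difference was 0.35 for the 61 genes and -0.06 for all genes. A positive difference means that the drug raised the gene more, or lowered it less, in cells that had the siRNA, and many of these genes stood lower in Hif1a_siRNA than in NC_siRNA cells. The labels name an siRNA for both groups of the first effect and for neither group of the second. Loss of Hif1a therefore cannot be told apart from transfection in this difference.

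**Figure D5:**
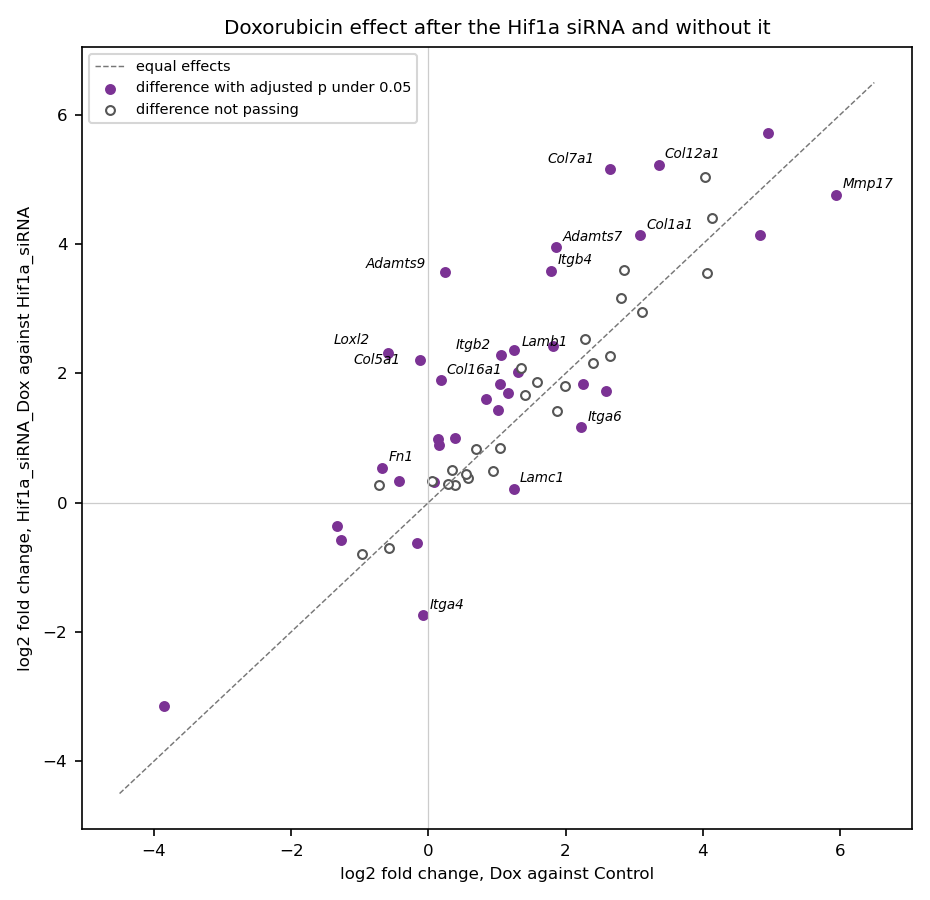
Each point is 1 of the 61 genes, with the edgeR log2 fold change of Hif1a_siRNA_Dox against Hif1a_siRNA on the vertical axis and of Dox against Control on the horizontal axis; the dashed line marks equal effects and names are given to genes whose difference passed and exceeded 1. Most points lie at upper right, Loxl2, Fn1 and Mmp11, called in opposite directions in the 2 comparisons, lie left of 0 and above it, and Itga4 lies near 0 on the horizontal axis and at -1.74 on the vertical one.

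Loxl2 had the largest difference among members reaching 5 CPM in any of the 4 groups, at 2.91 ± 0.14 on the log2 scale (edgeR, adjusted p = 4.3e-14). It averaged 20.4 ± 3.19 CPM in Hif1a_siRNA_Dox cells and 4.08 ± 0.224 in Hif1a_siRNA cells, and 56.7 ± 2.17 CPM in Dox cells and 85.5 ± 3.17 in Control cells (SD, n = 3 each). The drug thus came with more Loxl2 in the first pair and less in the second, and the combination still held less than either Dox or Control. Col7a1 followed at 2.51 ± 0.57 (edgeR, adjusted p = 0.001), with 15.0 ± 2.00 CPM in Hif1a_siRNA_Dox cells and 0.417 ± 0.0520 in Hif1a_siRNA cells, and 9.55 ± 4.15 CPM in Dox cells and 1.52 ± 0.231 in Control cells. Col5a1 came next at 2.32 ± 0.17 (edgeR, adjusted p = 1.4e-09), with 108 ± 20.1 CPM in Hif1a_siRNA_Dox cells and 23.3 ± 2.53 in Hif1a_siRNA cells, and 98.5 ± 14.8 CPM in Dox cells and 107 ± 7.66 in Control cells. Of these 4 groups Hif1a_siRNA was the one that stood apart for Col5a1. NC_siRNA cells, which are not in the contrast, averaged 201 CPM.

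The negative differences were led by Itga4, at -1.67 ± 0.13 (edgeR, adjusted p = 2.2e-10), with 25.3 ± 1.88 CPM in Hif1a_siRNA_Dox cells and 84.7 ± 4.34 in Hif1a_siRNA cells, and 23.4 ± 1.01 CPM in Dox cells and 24.6 ± 2.61 in Control cells. Mmp17 differed by -1.18 ± 0.34 (edgeR, adjusted p = 0.0054), with 32.7 ± 3.41 CPM in Hif1a_siRNA_Dox cells and 1.19 ± 0.493 in Hif1a_siRNA cells, and 41.8 ± 4.45 CPM in Dox cells and 0.673 ± 0.296 in Control cells. Itga6, the laminin receptor subunit, differed by -1.06 ± 0.17 (edgeR, adjusted p = 2.6e-05), with 144 ± 3.87 CPM in Hif1a_siRNA_Dox cells and 64.1 ± 1.52 in Hif1a_siRNA cells, and 147 ± 5.70 CPM in Dox cells and 31.4 ± 8.58 in Control cells. In Mmp17 and Itga6 the drug groups stood high. Mmp17 libraries of Hif1a_siRNA and Control overlapped, and these 2 groups were not compared by a test. By class, 9 of 16 collagens had a positive difference, as did Fn1, Postn and both Loxl genes, against 6 positive and 3 negative of 16 integrins, and Timp2 and Timp3 had a negative one. Positive and negative differences numbered 10 and 2 of 12 (median 0.95) for collagen modification genes, 5 and 1 of 9 (median 0.65) for matricellular genes and 7 and 4 of 20 (median 0.12) for adhesion genes. They numbered 4 and 2 of 12 (median 0.19) for pericellular proteases, 3 and 3 of 9 (median -0.24) for basement membrane and proteoglycan genes and 3 and 6 of 11 (median -0.39) for TGF-beta genes. Differences lost on leaving out 1 library were those of Postn without Hif1a_siRNA_Dox replicate 2 or Hif1a_siRNA replicate 1 or 2 or Dox replicate 2 or 3 or Control replicate 2 or 3 (up to 0.13), Adamts14 without Hif1a_siRNA replicate 1 or Control replicate 3 (up to 0.06), Itga5 without Hif1a_siRNA_Dox replicate 1 or 3 or Hif1a_siRNA replicate 1, 2 or 3 or Dox replicate 1 or 3 or Control replicate 2 or 3 (up to 0.15), Itga10 without Hif1a_siRNA_Dox replicate 1 or Hif1a_siRNA replicate 3 or Dox replicate 3 or Control replicate 3 (up to 0.37), and Col15a1 without Hif1a_siRNA_Dox replicate 2 or Hif1a_siRNA replicate 1 or 3 or Dox replicate 1 or 2 or Control replicate 1 or 2 (up to 0.11), as edgeR adjusted p. With only the groups compared in the fit, the differences of Postn (0.059), Itga5 (0.09) and Itga10 (0.05) were also lost, and with the genes listed in those groups those of Postn (0.058) and Itga5 (0.087), as edgeR adjusted p. The time since transfection is not known to match between Hif1a_siRNA_Dox and Hif1a_siRNA and cannot be told apart from the drug there.

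Transfection with the control siRNA, NC_siRNA against Control, itself changed the set: 31 of 61 genes rose, 8 fell and 22 did not pass, where 33.1% of all genes rose and 33.7% fell. The median log2 fold change was 0.33, against -0.01 over all genes. Proteases of proteoglycans led. Adamts4 had 235, 207 and 215 CPM in NC_siRNA libraries, against 45.5, 43.4 and 43.7 CPM in Control libraries (log2 2.31 ± 0.08; edgeR, adjusted p = 2.2e-15). Adamts1 had 201, 196 and 189 CPM in NC_siRNA libraries, against 67.7, 70.3 and 68.2 CPM in Control libraries (log2 1.51 ± 0.08; edgeR, adjusted p = 3.4e-13). Both were higher in every NC_siRNA library than in every Control library, and the same held for Mmp14, with 416, 417 and 409 CPM in NC_siRNA libraries and 156, 169.8 and 160.4 CPM in Control libraries (log2 1.35 ± 0.07; edgeR, adjusted p = 8.8e-13). Hif1a_siRNA cells, also transfected, averaged 48.1 CPM of Adamts4, 106 of Adamts1 and 119 of Mmp14. Col5a1 had 212, 189.9 and 201 CPM in NC_siRNA libraries and 100.1, 115 and 105 CPM in Control libraries (log2 0.91 ± 0.12; edgeR, adjusted p = 1.7e-06). Itgb1, Fn1 and Loxl2 rose by 0.84, 0.65 and 0.56.

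With the control siRNA 7 of 16 collagens rose and 6 fell (median log2 fold change 0.26). Col1a1 had 1.83, 2.20 and 1.93 CPM in NC_siRNA libraries, against 5.65, 5.33 and 5.50 CPM in Control libraries (log2 -1.46 ± 0.22; edgeR, adjusted p = 7.5e-06). Col11a2 had 3.31, 2.20 and 3.01 CPM in NC_siRNA libraries and 7.85, 5.20 and 7.49 CPM in Control libraries (log2 -1.27 ± 0.22; edgeR, adjusted p = 5.9e-05). For these 2 chains the rise after the Hif1a siRNA is measured against this lower level, and Hif1a_siRNA cells averaged 3.50 CPM of Col1a1 and 7.35 CPM of Col11a2. Itgb4 had 2.91, 2.49 and 2.42 CPM in NC_siRNA libraries and 6.35, 5.03 and 4.89 CPM in Control libraries, without overlap (log2 -1.05 ± 0.17; edgeR, adjusted p = 8.2e-06). The number of falls was 4 in place of 8 without Control replicate 3. Itga3 was no longer called without that library, at a log2 fold change of -1.03 in place of -1.61 (edgeR, adjusted p = 0.085). Itga3, Col27a1 and Mmp17 reached 10 reads in 3 libraries for the NC_siRNA list only with Control libraries counted. The falls of Itga3 and Col27a1, which are high in Control, therefore add no support to the count of falls. Other calls lost on leaving out 1 library were falls of Col12a1 without NC_siRNA replicate 1 or 3 or Control replicate 1, 2 or 3 (up to 0.1), Col16a1 without NC_siRNA replicate 1 or 2 or Control replicate 2 or 3 (up to 0.17), and Col27a1 without Control replicate 1 or 3 (up to 0.075), and rises of Col4a2 without NC_siRNA replicate 1 or Control replicate 3 (up to 0.083), Adamts6 without NC_siRNA replicate 1 or 3 or Control replicate 2 (up to 0.14), and Adamts13 without NC_siRNA replicate 2 or Control replicate 2 (up to 0.083), as edgeR adjusted p. The Col16a1 fall was also lost with RLE factors (0.057) and in DESeq2 (adjusted p = 0.06). In the related lists, collagen modification had 6 higher and 2 lower of 12 (median 0.16), matricellular genes 3 higher and 3 lower of 9 (median -0.10) with Ccn1 at 2.27, and basement membrane and proteoglycan genes 3 higher and 3 lower of 9 (median 0.05). Ccn2 is listed for NC_siRNA only with that group's own libraries, where it is higher, counted, and adds no support to the matricellular count. Adhesion had 7 higher and 6 lower of 20 (median 0.09), pericellular proteases 4 higher and 6 lower of 12 (median -0.23) and TGF-beta 7 higher and 3 lower of 11 (median 0.40).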

How the data were processed

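RNA-seq of 15 libraries gave raw read counts per gene, deposited by the authors in 1 table a library, with no normalization. Per the submitters' processing notes, the tools were HISAT2 2.1.0 and Bowtie2 2.3.4.1, StringTie 2.1.3b, Trimmomatic 0.38 and FastQC 0.11.7, with mm10; their roles are not given in the sources used here. Per the labels' protocols, libraries came from a TruSeq Stranded mRNA kit. The counting tool and its strand setting are not given in the sources used here.

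Each group lists its own genes. Every gene listed for a group other than Control reached 10 reads in 3 or more of the 6 libraries that this group and Control hold together. Repeated gene IDs (24 to 28 a table outside Control) held identical values and were kept once. Blank symbols were filled by gene ID from RefSeq for 1491 genes, none of them among the 62. Coordinates are RefSeq's for GRCm38 and exon overlaps GENCODE vM21's.

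The 12721 genes listed for all 5 groups were fitted together with edgeR 4.0.16 in R 4.3.3 (TMM, group term, robust quasi-likelihood F test, two-sided, 10 residual degrees of freedom). P-values were adjusted by Benjamini and Hochberg's method across the 12721 genes, and 0.05 was the threshold for a call. The low-count filter removed 0 genes. The SE is the absolute log2 fold change divided by the square root of F. Precision rises with reads: library totals ran from 23825110 to 28734303, and the common biological coefficient of variation was 0.0907. Replicates differed by more than counting noise (chi-square per degree of freedom 3.56 to 34.5). The procedure was tested on simulated data.

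Full values go to up to 4 largest rises and 4 largest falls per comparison among called genes whose groups do not overlap and whose higher mean reaches 5 CPM, and 3 each way for the difference of drug effects. Of the related lists, genes with the 3 smallest adjusted p could be named; one of them is not reported here. The members, lists and rule were chosen with earlier results of these data known. Genes named beside these in the text were chosen after their values were seen. Alternatives were RLE and upper-quartile factors, DESeq2 1.42.0, a replicate block, 2 other low-count rules (none at all, or 1 CPM in 3 libraries), only the groups compared, genes listed in those groups, and each library left out in turn.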

Additional observations from a re-analysis of the deposited data

Results flagged for a closer look

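The effect of doxorubicin after the Hif1a siRNA (Hif1a_siRNA_Dox against Hif1a_siRNA) differed from its effect without it (Dox against Control) in 35 of the 61 genes, by edgeR's test of the difference of the log2 fold changes at an adjusted p of 0.05. Over all 12721 genes 58.6% differed, a share close to that of the 61 genes, so the count is not read as a trait of the set. The first effect comes from transfected cells and the second from cells whose labels name no siRNA. Loss of Hif1a and transfection cannot be told apart in these differences. Among the ligands, positive differences were 2.51 for Col7a1, 2.32 for Col5a1, 1.87 for Col12a1, 1.71 for Col16a1, 1.05 for Col1a1, 0.959 for Col4a5, 0.843 for Col4a2, 0.704 for Col5a3 and 0.606 for Col4a1. Fn1 differed by 1.21, Lamb1 by 1.12, Lamb2 by 0.79 and Postn by 0.423, and negative differences were -0.856 for Col15a1 and -1.03 for Lamc1. Among the receptors the differences were 1.8 for Itgb4, 1.22 for Itgb2, 0.773 for Itga10, 0.715 for Itga1, 0.705 for Itgb3, 0.231 for Itga5, -0.705 for Itga2b, -1.06 for Itga6 and -1.67 for Itga4. Cross-linkers differed by 2.91 (Loxl2) and 0.597 (Loxl3). Among the proteases they were 3.33 for Adamts9, 2.09 for Adamts7, 0.744 for Adamts10, 0.544 for Adamts14, 0.766 for Mmp11, 0.751 for Mmp14 and -1.18 for Mmp17, and the inhibitors Timp2 and Timp3 differed by -0.425 and -0.452. The Adamts9 value rests on means under 5 CPM in every group of the contrast. Adamts9 is also listed for Hif1a_siRNA only with Control libraries, where it is higher, counted.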

How the results depend on the processing

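Of 254 calls over the 61 genes and 6 comparisons, 222 kept their direction and stayed past the threshold under every alternative that was run, and 32 lost the call under at least 1. Leaving out 1 library ended 31 of them, a replicate block 4, fitting only the groups compared 4, upper-quartile factors 3, genes listed in those groups 3, and RLE factors and DESeq2 1 each. Beside calls named in the report, upper-quartile factors ended the rise of Col1a1 in Hif1a_siRNA_Dox against Dox (edgeR, adjusted p = 0.056), as did fitting only the groups compared (0.22) and genes listed in them (0.23), and the fall of Col4a5 in Hif1a_siRNA_Dox against Hif1a_siRNA (0.086). The number of genes higher in Hif1a_siRNA_Dox than in Dox was 9, and 5 to 11 with 1 library left out, with the lowest count without Dox replicate 3. The number lower in NC_siRNA than in Control was 8, and 4 to 7 with 1 library left out, with the lowest count without Control replicate 3. The other counts stayed within 1.5 times their value. Upper-quartile factors moved the median log2 fold change of all genes to 0.222 for Dox against Control, against 0.097 with TMM, and to 0.190 for Hif1a_siRNA_Dox against Hif1a_siRNA, against 0.041. Same-numbered replicates did not deviate together (correlations of -0.162 to 0.064), and the main fit did not pair libraries by number. The labels do not say whether equal numbers mark a shared culture. With a replicate block, 8 genes fell with Dox, 52 rose in Hif1a_siRNA_Dox against Hif1a_siRNA and 25 had a positive difference of drug effects. The block took the fall of Itga8 with Dox to an edgeR adjusted p of 0.056, the rise of Lamc1 in Hif1a_siRNA_Dox against Hif1a_siRNA to 0.058, and the differences of Postn and Itga5 to 0.053 and 0.063. Depth limits the genes with the fewest reads: Itga3 had 4 to 32 reads in the NC_siRNA and Control libraries.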
